A study of Homo sapiens with 14 samples.

Results

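The 9 genes described here are the Hedgehog ligand SHH, its receptor PTCH1, the co-receptors GAS1, BOC and CDON, the transcription factors GLI1, GLI2 and GLI3, and the ligand-binding inhibitor HHIP. They were chosen by name as parts of the pathway. All 9 were found among the 63677 gene IDs of the bulk RNA-seq tables and among the 17493 genes of the gastruloid nuclei table. The question was where ligand, receptor and target RNAs lay in gastruloids, and how they differed between human embryonic stem cells, endoderm and foregut with and without repression of a transposable element.

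The study used H9, an established human embryonic stem cell (hESC) line, and cells and 3D aggregates derived from it. The paper's methods also name the line H1, and the titles of the bulk libraries do not give the line. Bulk RNA-seq covered 12 libraries in 5 groups, and nuclei of gastruloids were measured by RNA-seq and by ATAC-seq, which reads open chromatin, in 1 preparation. Gastruloids are aggregates of stem cells that form mesoderm and neural cell types. Here they were started from 800 cells per well, exposed to CHIR at 3 uM, which activates WNT signalling, and harvested at 72 h.

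The bulk groups were undifferentiated hESC (2 libraries), control endoderm (3), endoderm with sgRNA (3), control foregut (2) and foregut with sgRNA (2). Endoderm was made with Activin at 100 ng/ml for 3 days together with CHIR-99021 at 5 uM on day 1 and 0.5 uM on day 2, and foregut took 3 further days. Control endoderm carried dCAS9-KRAB, a repressor that needs a guide to find DNA, and no guide. The sgRNA groups carried it together with a guide against LTR5, a family of retroviral repeats, which the authors designed on the LTR5B subfamily, so that none of the 9 genes was itself a target. The label of the hESC libraries does not mention dCAS9-KRAB. The study describes its RNA-seq replicates as biologically independent, while the labels do not name separate cultures; p-values measure the spread between these libraries.

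Library labels were checked by marker genes. POU5F1, a pluripotency factor, was at 286 and 620 reads per 1000000 gene reads (CPM) in hESC and at 637 to 842 CPM in control endoderm. SOX17, an endoderm factor, had no reads in hESC and 209 to 290 CPM in control endoderm. Both control foregut libraries held little POU5F1 (2.39 and 4.55 CPM) and much FOXA2 (450 and 395 CPM) and FOXA1 (218 and 193 CPM), factors of gut endoderm. A status field calls these control libraries hESC, which these markers go against, and calls the sgRNA foregut libraries endoderm without sgRNA. Foregut groups were therefore taken from the library titles. PDX1, a posterior foregut factor, was at 25.5 and 25.9 CPM in control foregut and at 2.42 and 8.50 CPM in sgRNA foregut.

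The guide labels were checked by reads on LTR5B and on LTR5_Hs, the youngest LTR5 subfamily, set against gene reads. LTR5B was lower in every sgRNA library than in the controls of its tissue, at 1.5 to 3.36 against 5.03 to 5.57 CPM in endoderm and at 5.59 and 4.28 against 12.4 and 9.29 CPM in foregut. LTR5_Hs reads stood at 17.8 to 19.2 CPM in control endoderm and 10.6 to 14.1 in sgRNA endoderm, with no overlap. In control foregut they stood at 9.10 and 8.75 CPM. In sgRNA foregut library 1 they stood at 4.43 and in library 2 at 10.9, above both controls. For the library labelled sgRNA foregut 2, LTR5B thus runs as the label says and LTR5_Hs does not.

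A library held between 11583063 and 37152434 gene reads, and 3 reads, taken as the floor, corresponded to 0.0807 to 0.259 CPM. Foregut libraries stood apart from the rest. Of 15081 genes with at least 30 reads in 1 control foregut library, 431 (2.86%) had no read in the other, and in sgRNA foregut 1180 of 14887 did (7.93%). In hESC this held for 0 of 13009 genes, and in the endoderm pairs for 0 to 5. Foregut libraries were also submitted apart from the others, so batch and tissue cannot be told apart in any comparison with foregut. In bulk RNA, fewer cells of a type and less RNA per cell cannot be told apart either.

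Hedgehog ligands are secreted proteins. Without ligand, PTCH1 holds the membrane protein SMO inactive and GLI proteins, mainly GLI3, are processed into repressors; with ligand, SMO is released and GLI proteins, mainly GLI2, activate targets that include GLI1, PTCH1 and HHIP. In vertebrate embryos the notochord and the floor plate release SHH towards neural tube and somites, and gut endoderm releases SHH and IHH towards the mesenchyme around it.

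Promoters of the members are described first. RefSeq promoter windows on GRCh38.p14, 300 bases each from 250 before to 50 after a start site, existed for 7 of the 9 members, 15 windows in all; those of GLI1 and GLI3 were not among them. A peak of open chromatin in the gastruloid nuclei overlapped 13 of the 15 windows, against 58.4% of all 35116 windows. The 9 letters GACCACCCA, the core bound by GLI proteins, were searched on both strands. They were found in 83 of all windows (0.236%) and in 1 of the members' windows, a PTCH1 window. A match is a description of letters and not a bound site.

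Windows of 4 members are given as examples of the parts of the pathway: the ligand, the receptor window with the motif, the co-receptor whose RNA differed most between the nuclei classes below, and the inhibitor. Open chromatin covered each of them wholly, as it did windows of GLI2, GAS1 and CDON. They read 5′ to 3′ on the strand of the gene, and capitals mark the match on the reverse strand at base 79 of the PTCH1 window. The SHH window lies at chr7:155812414-155812713 on the minus strand, PTCH1 at chr9:95509217-95509516 on the minus strand, BOC at chr3:113211307-113211606 on the plus strand and HHIP at chr4:144645906-144646205 on the plus strand.
SHH: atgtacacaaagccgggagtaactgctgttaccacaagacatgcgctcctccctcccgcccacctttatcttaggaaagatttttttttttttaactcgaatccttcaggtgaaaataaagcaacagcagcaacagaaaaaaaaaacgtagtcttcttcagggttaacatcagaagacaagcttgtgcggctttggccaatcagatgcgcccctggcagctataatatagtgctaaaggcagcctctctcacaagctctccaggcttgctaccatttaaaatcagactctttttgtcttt
PTCH1: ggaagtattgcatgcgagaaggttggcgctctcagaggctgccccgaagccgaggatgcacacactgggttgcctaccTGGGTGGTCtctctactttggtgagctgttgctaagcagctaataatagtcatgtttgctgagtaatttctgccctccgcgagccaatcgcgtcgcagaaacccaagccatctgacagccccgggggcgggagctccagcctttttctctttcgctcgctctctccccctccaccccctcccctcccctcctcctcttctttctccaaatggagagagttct
BOC: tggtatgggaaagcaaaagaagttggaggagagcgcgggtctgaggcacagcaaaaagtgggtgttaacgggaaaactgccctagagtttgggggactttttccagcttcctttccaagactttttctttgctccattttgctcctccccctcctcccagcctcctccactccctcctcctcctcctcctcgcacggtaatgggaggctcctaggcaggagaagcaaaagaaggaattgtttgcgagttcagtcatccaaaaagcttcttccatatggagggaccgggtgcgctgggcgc
HHIP: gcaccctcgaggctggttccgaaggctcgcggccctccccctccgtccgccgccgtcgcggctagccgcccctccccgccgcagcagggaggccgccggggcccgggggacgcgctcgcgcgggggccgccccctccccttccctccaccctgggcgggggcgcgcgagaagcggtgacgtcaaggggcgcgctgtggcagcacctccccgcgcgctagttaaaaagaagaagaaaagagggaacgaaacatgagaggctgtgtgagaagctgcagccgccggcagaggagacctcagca

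SHH had the promoter poorest in G and C of all 15 member windows. Its GC content was 43.3%, with 7 CpG, against medians of 58.7% and 14 over all windows. HHIP had 72.7% and 36 CpG, the BOC window 53.7% and 9, and the PTCH1 window with the motif 57.0% and 13. The peak over the SHH window spanned 922 bases and that over the PTCH1 window 921 bases, close to the median of 878 bases over all 205374 peaks.

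Open chromatin was present around all 9 genes in the gastruloid. The start site lay inside a peak for SHH, PTCH1, GLI2, HHIP, GAS1 and CDON, and 74 bases from one for GLI1, 289 for BOC and 677 for GLI3. Within 100 kb of the gene, peaks numbered 21 for SHH and 43 for PTCH1. GLI2 had 81, of which 49 lay in the gene, and GLI3 had 60, of which 40 did. In the plot of peaks by distance, GLI2 and GLI3 peaks fill the long gene bodies, while those of SHH lie mostly outside its 12.5-kb gene. Peaks were called over all nuclei together, so which nuclei opened them was not tested.

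The nuclei table held 3646 barcodes, none of them repeated, and 3422 nuclei were kept, which had 1000 or more unique molecules (UMIs), 200 or more genes and no more than 25% mitochondrial UMIs. TBXT, a factor of notochord and primitive streak, had 3 or more UMIs in 422 of them (12.3%), called TBXT-high. Of the others, 2616 (76.4%) had a UMI of SOX2 (neural), TBX6 (presomitic mesoderm) or PAX3 (dorsal neural tube and somite). In its gastruloids the paper takes SOX2 as a mark of neuro-mesenchymal progenitors. The 2616 nuclei are called responders, after the rule that chose them. By gene these were 920 SOX2-positive, 674 TBX6-positive and 2114 PAX3-positive nuclei, which overlap: 652 SOX2-positive and 346 TBX6-positive nuclei were also PAX3-positive. Intervals between these 3 classes treat shared UMIs as separate and are only a guide. The remaining 384 nuclei had neither. They were the shallowest class, with a median of 9930 UMIs, and 122 of them had under 5000. Of the 384, 103 (26.8%) held TBXT UMIs, below 3. The part of depth in their lack of a mark was not tested. At the threshold, 101 nuclei had exactly 3 TBXT UMIs and 204 had 2.

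TBXT-high nuclei fitted the label of a ligand source by markers of axial mesoderm. The 7 markers (TBXT, which chose the nuclei, and NOTO, CHRD, FOXA2, FOXJ1, NOG and LMX1A) summed to 1767 CPM in TBXT-high and 113 CPM in responder nuclei, led by CHRD at 571 and 29.2 CPM, and without TBXT to 1494 and 91.7 CPM. Paraxial mesoderm markers summed to 141 CPM in TBXT-high and 807 in responders, led by PAX3 (58.1 and 394 CPM), which is also 1 of the genes that chose the responders, and without PAX3 to 83.3 and 413 CPM. Without SOX2, only 2 neural markers were in the nuclei table, with a sum of 133 and 211 CPM. Of these, NKX2-2 went the other way, at 1.95 and 0.247 CPM, so the other gene made up nearly all of the sum. Without TBX6 the presomitic markers summed to 306 and 320 CPM, so these hardly separated the classes. The classes were not pure, since 294 TBXT-high nuclei (69.7%) also held a UMI of SOX2, TBX6 or PAX3. Scrublet marked 70 nuclei (2.05%) as doublets, among them 21 TBXT-high nuclei (4.98%), and without doublets the ratio of SHH given next was 31.2. TBXT-high nuclei were deeper than responders, with a median of 22118 against 16083 UMIs. With 1 preparation there is no test between classes, and the 95% intervals below cover counting error only.

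SHH RNA was concentrated in TBXT-high nuclei. It stood at 138 CPM there (131 to 146, 1421 UMIs) and at 4.61 CPM in responders (4.0 to 5.28, 205 UMIs), a ratio of 30 (25.9 to 34.9). Among responders, SOX2-positive nuclei had 6.08 CPM, TBX6-positive 7.63 CPM and PAX3-positive 2.20 CPM. SOX2-positive and TBX6-positive nuclei did not differ beyond counting error (ratio 0.797, 0.600 to 1.06), and PAX3-positive nuclei were below both. Nuclei with neither mark had 26.5 CPM, between the source and the responders. They were not free of the source mark, with TBXT at 32.2 CPM against 21.0 CPM in responders. The order of SHH was thus TBXT-high, neither, TBX6-positive with SOX2-positive, and PAX3-positive.

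A UMI of SHH was seen in 71.6% of TBXT-high nuclei and in 4.21% of responders. PAX3-positive nuclei, where SHH was lowest, gave 2.79% at a median depth of 15943 UMIs, against 22118 in TBXT-high nuclei. Thinned to 5000 UMIs per nucleus, the shares were 42.8% of 421 TBXT-high and 1.83% of 2514 responder nuclei, with 1 and 102 shallower nuclei left out. At equal depth the shares with SHH still differed. The ratio was 27.7 with TBXT at 1 or more UMIs, and rose to 35.8 with TBXT at 5 or more UMIs, to 41.0 with responder genes at 2 or more UMIs, and to 78.9 when nuclei in both classes were left out.

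PTCH1, the receptor and also a target, was spread over all classes. It stood at 438 CPM in TBXT-high nuclei (425 to 451) and at 330.5 CPM in responders (325 to 336), a ratio of 1.33 (1.28 to 1.37). TBX6-positive nuclei held the most, 532 CPM, which was 1.22-fold above TBXT-high nuclei (1.17 to 1.26). After TBXT-high nuclei came SOX2-positive nuclei with 384 CPM and nuclei with neither mark with 357 CPM, whose intervals touch, and PAX3-positive nuclei with 270 CPM. TBX6-positive nuclei exceeded PAX3-positive ones 1.97-fold (1.91 to 2.03). So the highest PTCH1 was not in the nuclei that held the ligand but in the presomitic class. Its UMI was seen in 96.2% of TBXT-high and 76.3% of responder nuclei, and after thinning in 76.5% and 57.2%; no class lacked it, so free RNA could not be gauged for PTCH1.

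The co-receptors lay opposite to the ligand. BOC, which binds SHH together with PTCH1, was at 58.2 CPM in TBXT-high nuclei and 373 CPM in responders, 6.41-fold lower (5.91 to 6.97). It was highest in PAX3-positive nuclei, at 449 CPM, followed by SOX2-positive (277 CPM), TBX6-positive (170 CPM) and unmarked nuclei (130 CPM). All of these neighbours differed beyond counting error, and TBXT-high nuclei came last. BOC UMIs were seen in 47.6% of TBXT-high and 76.3% of responder nuclei, although the former were deeper, and in 17.1% and 59.5% after thinning.

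CDON, a relative of BOC, followed the same order of classes. It was at 17.3 CPM in TBXT-high nuclei and 59.3 CPM in responders, 3.42-fold lower (2.94 to 4.01), and reached 70.5 CPM in PAX3-positive nuclei. TBXT-high and unmarked nuclei (21.5 CPM) did not differ beyond counting error (1.24-fold, 0.952 to 1.61). GAS1, a co-receptor held to the membrane by a lipid anchor, was at 12.0 CPM in TBXT-high nuclei and 44.1 CPM in responders, 3.69-fold lower (3.07 to 4.46). It too peaked in PAX3-positive nuclei, at 52.2 CPM, with 29.2 CPM in SOX2-positive and 21.0 CPM in TBX6-positive nuclei. All 3 co-receptors therefore shared the PAX3-positive class as their highest and TBXT-high as their lowest value.

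Among the transcription factors, GLI2 and GLI3 were lower and GLI1 slightly higher in TBXT-high nuclei. GLI2, the main activator, was at 58.4 CPM against 165 CPM in responders, 2.83-fold lower (2.60 to 3.08), and reached 185 CPM in PAX3-positive nuclei. GLI3, the main repressor, was at 84.7 CPM against 140 CPM, 1.65-fold lower (1.54 to 1.78), and was highest in SOX2-positive nuclei at 163 CPM. GLI2 thus peaked in the PAX3-positive class and GLI3 in the SOX2-positive class, where GLI2 stood at 152 CPM.

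GLI1, a target whose RNA serves as a readout of the pathway, was scarce in all classes. It had 94 UMIs in TBXT-high nuclei (9.14 CPM, 7.39 to 11.2) and 267 in responders (6.0 CPM, 5.30 to 6.77), a ratio of 1.52 (1.19 to 1.93). Against SOX2-positive nuclei (7.60 CPM) the ratio was 1.20 (0.914 to 1.58) and against TBX6-positive nuclei (7.16 CPM) 1.28 (0.947 to 1.72), so at this depth no difference from these was detectable. PAX3-positive nuclei had 5.50 CPM, 1.66-fold less than TBXT-high nuclei (1.29 to 2.14). HHIP, a decoy receptor and a target, ran the other way, with 6.32 CPM in TBXT-high nuclei and 12.8 CPM in responders, 2.02-fold lower (1.56 to 2.65). Its TBX6-positive (13.8 CPM) and PAX3-positive (13.9 CPM) values did not differ beyond counting error.

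Past 2-fold in either direction were 6 of the 9 members, against 17.7% of all 17493 genes, a count with no test. SHH was the single member higher in TBXT-high nuclei, and GLI2, HHIP, GAS1, BOC and CDON were lower. The median log2 ratio was -1.0 over the members and -0.12 over all genes. In the bar plot of classes, SHH stands out in the TBXT-high bar, PTCH1 in the TBX6-positive bar, and BOC, CDON, GAS1 and GLI2 in the PAX3-positive bar.

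**Figure D1:**
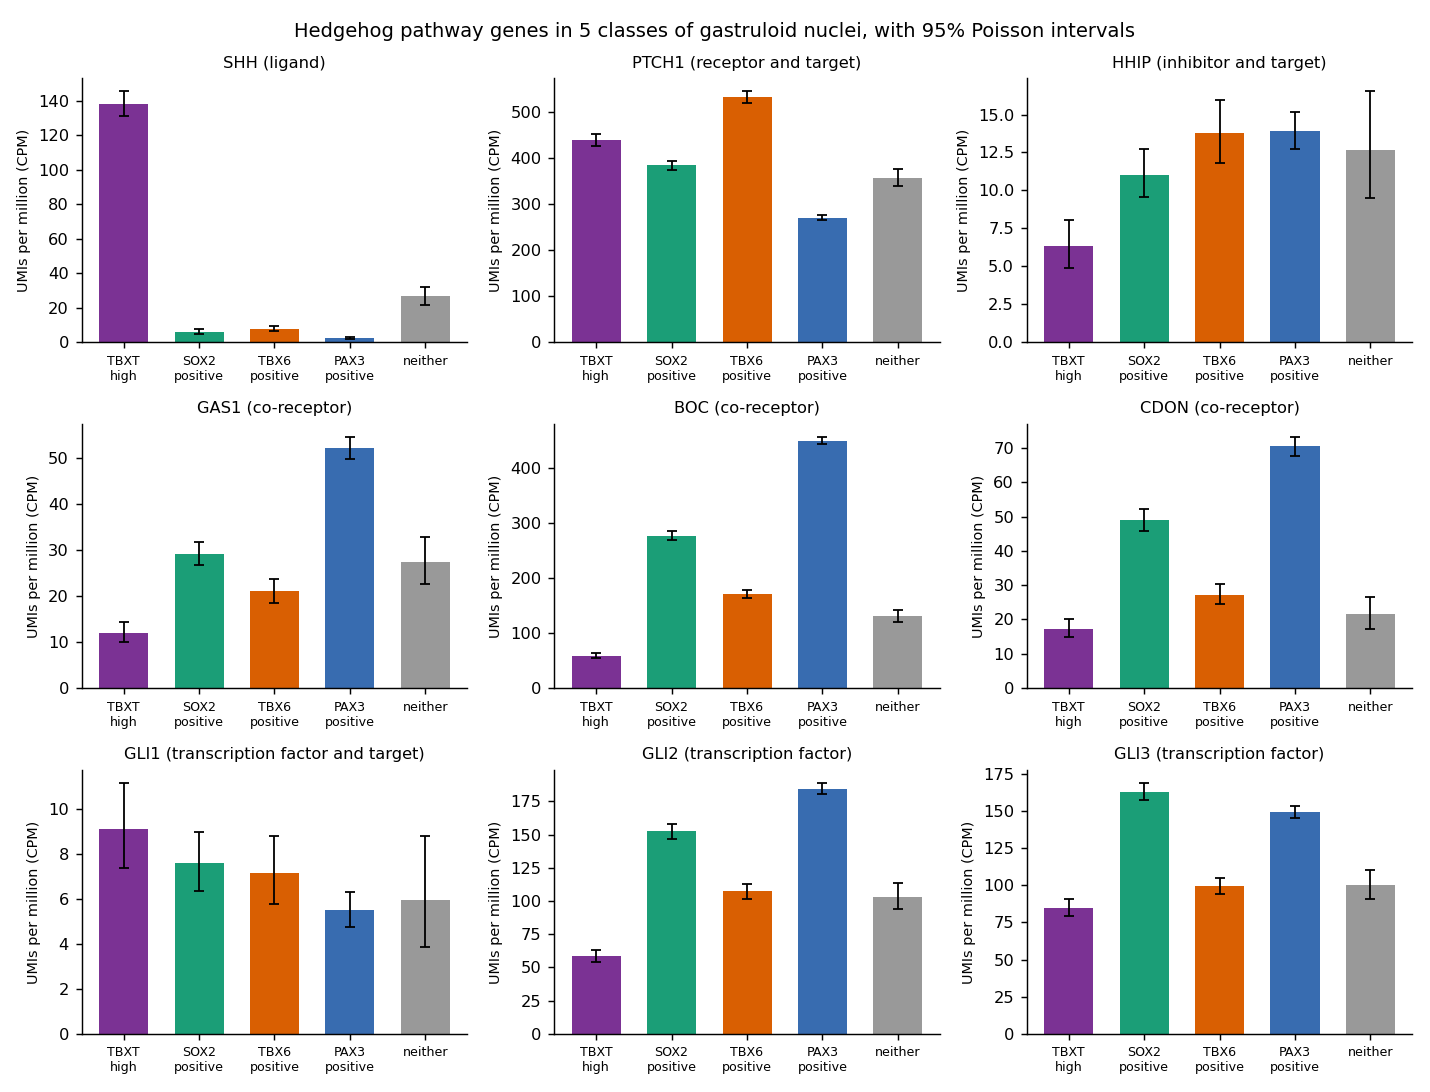
CPM of the 9 genes in TBXT-high, SOX2-positive, TBX6-positive, PAX3-positive and unmarked nuclei of the gastruloid, each bar a sum of UMIs over a class with its exact Poisson 95% interval. SHH is highest in TBXT-high nuclei (138 CPM) and BOC lowest there (58.2 CPM).

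Within the range of TBXT, SHH rose with every step. It stood at 2.99 CPM in the 2136 nuclei with no TBXT UMI, 8.4 CPM at 1 UMI, 27.7 CPM at 2, 90.8 CPM at 3 to 4, 147 CPM at 5 to 9 and 196 CPM in the 84 nuclei with 10 or more. The threshold of 3 UMIs thus cut a continuous rise, and nuclei with 2 UMIs already held more SHH than those with none. PTCH1 rose and fell along the same steps, with 299, 375, 474, 489, 437 and 362 CPM. Its highest values, at 2 and at 3 to 4 UMIs, did not differ beyond their intervals, and nuclei with 10 or more UMIs were below them.

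BOC fell along the steps, with 402, 285, 162, 62.3, 62.4 and 44.7 CPM. Most of the fall lay below 3 UMIs. CDON fell from 62.2 CPM at 0 to 16.5 CPM at 3 to 4 UMIs and then held, with 17.8 and 17.6 CPM. GAS1 behaved alike, from 48.7 CPM at 0 to 13.8, 11.1 and 10.7 CPM in the upper steps. The fall of the 3 co-receptors was thus nearly complete where SHH was still rising.

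GLI2 and GLI3 parted in the middle of the range. At 2 UMIs GLI3 was at 119 CPM (109 to 130), below its 138 CPM (134 to 142) in nuclei without TBXT. At 3 to 4 UMIs GLI2 had fallen from 166 to 71.3 CPM, while GLI3 was at 130 CPM, close to its value without TBXT. At 5 to 9 UMIs they were at 41.9 (35.9 to 48.7) and 63.9 CPM, and at 10 or more UMIs at 66.8 (56.9 to 77.9) and 52.0 CPM, so GLI2 was lowest at 5 to 9 UMIs. GLI1 ranged from 5.19 CPM at 0 to 11.9 CPM at 10 or more UMIs, where 29 UMIs gave an interval of 7.96 to 17.1. HHIP was at 12.1, 14.2 and 13.4 CPM up to 2 UMIs and at 7.05, 3.86 and 9.42 CPM above.

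**Figure D2:**
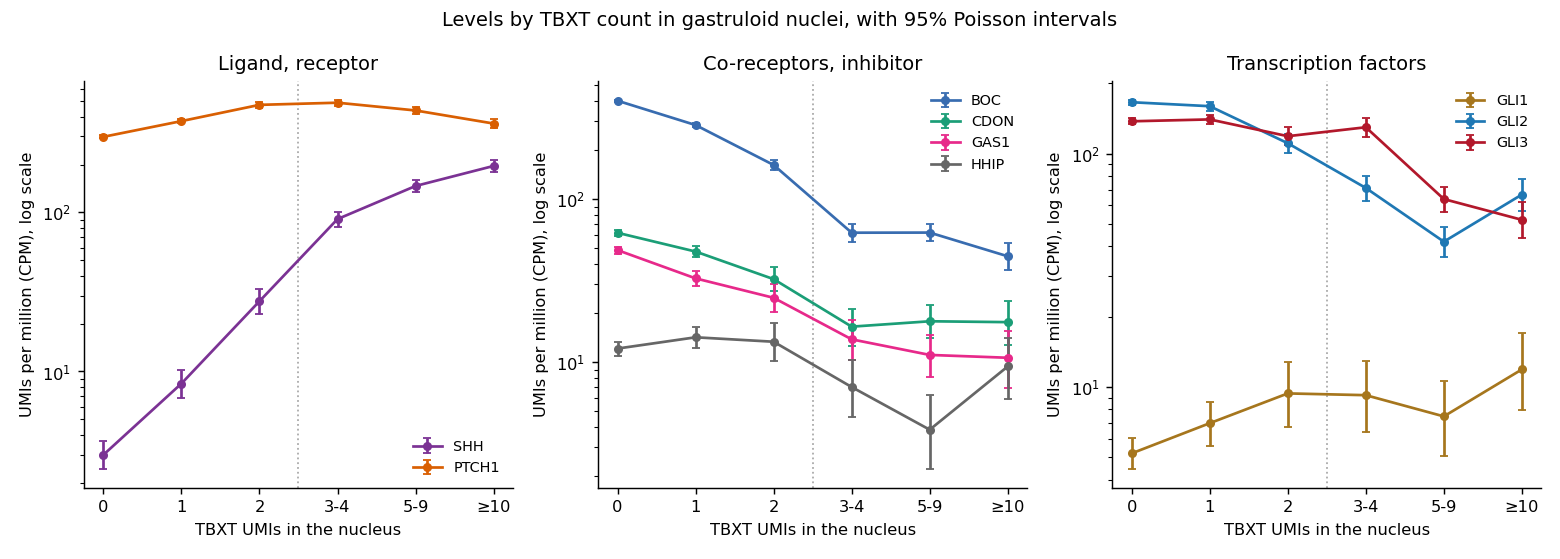
CPM of the 9 genes by the number of TBXT UMIs in a nucleus (0, 1, 2, 3 to 4, 5 to 9, 10 or more) on a logarithmic axis, with exact Poisson 95% intervals. SHH climbs from 2.99 to 196 CPM, PTCH1 peaks at 489 CPM at 3 to 4 UMIs, and BOC falls from 402 to 44.7 CPM.

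TBXT-high nuclei with and without an SHH UMI differed in the other members. The 302 nuclei with SHH had a median of 21935 UMIs and the 120 without it 22654, so depth was alike. PTCH1 was at 387 CPM (373 to 402) in nuclei with SHH and 567 CPM (540 to 595) in those without. GLI3 was at 60.7 and 146 CPM and GLI2 at 46.8 and 87.8 CPM, in the same order. So receptor, activator and repressor RNAs were all lower in the TBXT-high nuclei in which the ligand was seen. BOC (56.8 and 61.6 CPM), CDON (17.6 and 16.5 CPM), GAS1 (12.3 and 11 CPM), HHIP (6.10 and 6.89 CPM) and GLI1 (8.27 and 11.4 CPM) did not differ beyond their intervals.

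Axial markers moved with SHH between these nuclei. CHRD, a secreted BMP inhibitor, was at 711 and 213 CPM, the notochord factor NOTO at 302 and 86.4 CPM, and FOXA2 at 218.5 and 81.6 CPM. The marks of the other classes were lower with SHH than without it, SOX2 at 31.6 and 85.1 CPM, TBX6 at 17.1 and 52.0 CPM and PAX3 at 39.4 and 105 CPM. TBXT itself was at 308 and 185 CPM. Their part in the differences of PTCH1, GLI2 and GLI3 was not tested. A further 154 nuclei held SHH with TBXT below 3 UMIs, and CHRD stood at 326 CPM in these.

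Other pathway genes were counted by lists, with the limit of 2-fold and no test. The glypicans GPC3, GPC5 and GPC6, surface proteins that bind ligands, were 2.09-fold, 2.18-fold and 2.98-fold lower in TBXT-high nuclei than in responders. Among genes for ligand release, SCUBE1 was 3.06-fold lower on 8 UMIs, and DISP1, which exports the ligand, was 1.97-fold lower (69.0 against 136 CPM). None of 20 transduction genes and none of 5 cilium genes passed 2-fold, beside 10.8% higher and 6.90% lower of all 17493 genes.

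Targets known from other tissues moved in both directions. Of 12 measured, FOXA2 (12.1-fold), NKX2-2 (7.87-fold on 20 UMIs), NKX6-1 (5.15-fold), CCND1 (3.66-fold) and FOXF1 (2.68-fold) were higher in TBXT-high nuclei. FOXC2 (4.6-fold) and FOXL1 (3.87-fold) were lower, and PAX9 passed 2-fold on 5 UMIs with an interval that includes no difference. Over all genes, 10.8% were past 2-fold higher and 6.90% lower. FOXA2 was also among the axial markers that describe these nuclei. TBXT-high nuclei thus held more FOXA2 than responders, with PTCH1 and GLI1 within 2-fold.

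In the bulk libraries, values for the ligand come first. SHH (ENSG00000164690, GRCh37 chr7:155592674-155605157, minus strand) was at 0.340 and 0.532 CPM in hESC, from 8 and 12 reads. It was at 1.22, 2.00 and 0.611 CPM in control endoderm and at 1.08, 1.32 and 0.604 CPM in sgRNA endoderm. It reached 5.91 and 6.92 CPM in control foregut and 3.58 and 8.89 CPM in sgRNA foregut. All 4 foregut libraries were above all others and both hESC libraries were lowest, while control and sgRNA libraries of the same tissue overlapped. SHH was therefore low but measurable in endoderm and highest in foregut.

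PTCH1 (ENSG00000185920) ran the other way. It was at 24.4 and 28.9 CPM in hESC, at 22.1, 17.2 and 13.9 CPM in control endoderm and at 13.9, 20.3 and 14.8 CPM in sgRNA endoderm. It was at 8.36 and 10.0 CPM in control foregut. In sgRNA foregut the libraries lay far apart, at 3.64 CPM, the lowest value of all, and 19.7 CPM, within the range of endoderm. Only hESC stood clear of the other groups in PTCH1, whose ranges overlapped from each neighbour to the next.

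Of the co-receptors, CDON (ENSG00000064309) was highest in foregut, and BOC and GAS1 had their highest means in hESC. CDON was at 10.5 and 10.0 CPM in hESC, at 15.5, 13 and 9.10 CPM in control endoderm and at 10.3, 11.2 and 9.32 CPM in sgRNA endoderm. It was at 32.8 and 31.1 CPM in control foregut and at 22.3 and 29.6 CPM in sgRNA foregut. Both foregut groups were clear of the other 3 groups, which overlapped, and sgRNA foregut lay below control foregut without overlap.

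BOC (ENSG00000144857) was at 10.2 and 11.9 CPM in hESC and at 5.59, 2.74 and 4.40 CPM in control endoderm. It was at 7.26, 5.04 and 4.58 CPM in sgRNA endoderm, 2.97 and 6.19 CPM in control foregut and 3.23 and 6.10 CPM in sgRNA foregut. All groups but hESC overlapped. Of the exons of BOC, 530 of 10330 bases are shared with CFAP44 on the other strand, which had 0.135 to 0.235 CPM on average in hESC and endoderm and 12.9 and 18.7 CPM in control and sgRNA foregut. The paper names a stranded library kit, while whether counting used the strand is not given in the sources used here. Foregut values of BOC may therefore hold reads of CFAP44.

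GAS1 (ENSG00000180447) was uneven between the control endoderm libraries. It was at 6.20 and 6.74 CPM in hESC, at 6.31, 1.35 and 1.34 CPM in control endoderm and at 5.64, 3.26 and 2.42 CPM in sgRNA endoderm. Control foregut had 1.59 and 2.23 CPM, and sgRNA foregut 1.51 CPM and no read. Of the control endoderm libraries only the first had a level of GAS1 like that of hESC. The same library was also highest of the 3 in the sum of 6 mesenchyme markers, at 222 CPM against 96.6 and 137 CPM, led by PDGFRA, and their part in this was not tested.

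The 3 GLI genes had their own patterns. GLI1 (ENSG00000111087) was at 9.01 and 9.49 CPM in hESC, at 3.05, 2.00 and 2.32 CPM in control endoderm, and at 2.76, 2.60 and 0.604 CPM in sgRNA endoderm. In foregut it was low, at 0.582 CPM and no read in control libraries and 0.345 CPM and no read in sgRNA libraries. The order of GLI1 was hESC, endoderm and foregut without overlap, sgRNA endoderm 3 lying just above control foregut 1, and control and sgRNA groups overlapped in both tissues.

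GLI2 (ENSG00000074047) was at 20.4 and 28.8 CPM in hESC and at 10.1, 11.2 and 10.7 CPM in control endoderm. It was at 7.26, 11.5 and 8.81 CPM in sgRNA endoderm, at 0 and 1.13 CPM in control foregut and at 2.26 and 2.83 CPM in sgRNA foregut. The control foregut library without a read of GLI2 had 32641546 gene reads, and the other had 42 reads of it. This is the kind of gap between replicates that set the foregut libraries apart.

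GLI3 (ENSG00000106571) was the GLI gene that stayed in foregut. It was at 19.1 and 32.5 CPM in hESC, 10.9, 7.76 and 7.63 CPM in control endoderm and 9.30, 11 and 9.41 CPM in sgRNA endoderm. It was at 13.1 and 18.4 CPM in control foregut and at 20.8 and 40.3 CPM in sgRNA foregut. The order was sgRNA foregut with hESC, which overlapped, then control foregut, then both endoderm groups, which overlapped.

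HHIP (ENSG00000164161) was low in every library. It was at 0.467 and 0.310 CPM in hESC, 1.12, 1.49 and 1.65 CPM in control endoderm and 0.300, 0.917 and 1.99 CPM in sgRNA endoderm. Control foregut had 1.35 and 2.66 CPM and sgRNA foregut 0.942 CPM and no read. Each group overlapped with its neighbour in the order of means. HHIP shares 813 of 11939 exon bases with HHIP-AS1 on the other strand. HHIP-AS1 had no read in hESC and 1.49 and 1.72 CPM on average in control and sgRNA foregut. As for BOC, the strand setting of the counting is not given, so values of HHIP may hold reads of HHIP-AS1.

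Per kb of exon the leading member differed between groups. In hESC it was GLI2, at 3.19 CPM per kb, and HHIP was lowest, at 0.0326. In control endoderm GLI2 (1.39 CPM per kb) was followed by PTCH1 (1.03). In control foregut CDON (1.6), SHH (1.23) and GLI3 (1.14) had the highest CPM per kb, and in sgRNA foregut GLI3 (2.21) did. On this scale the ligand passed from next to last in hESC to second in control foregut. The plot of CPM by library shows these shifts gene by gene.

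**Figure D3:**
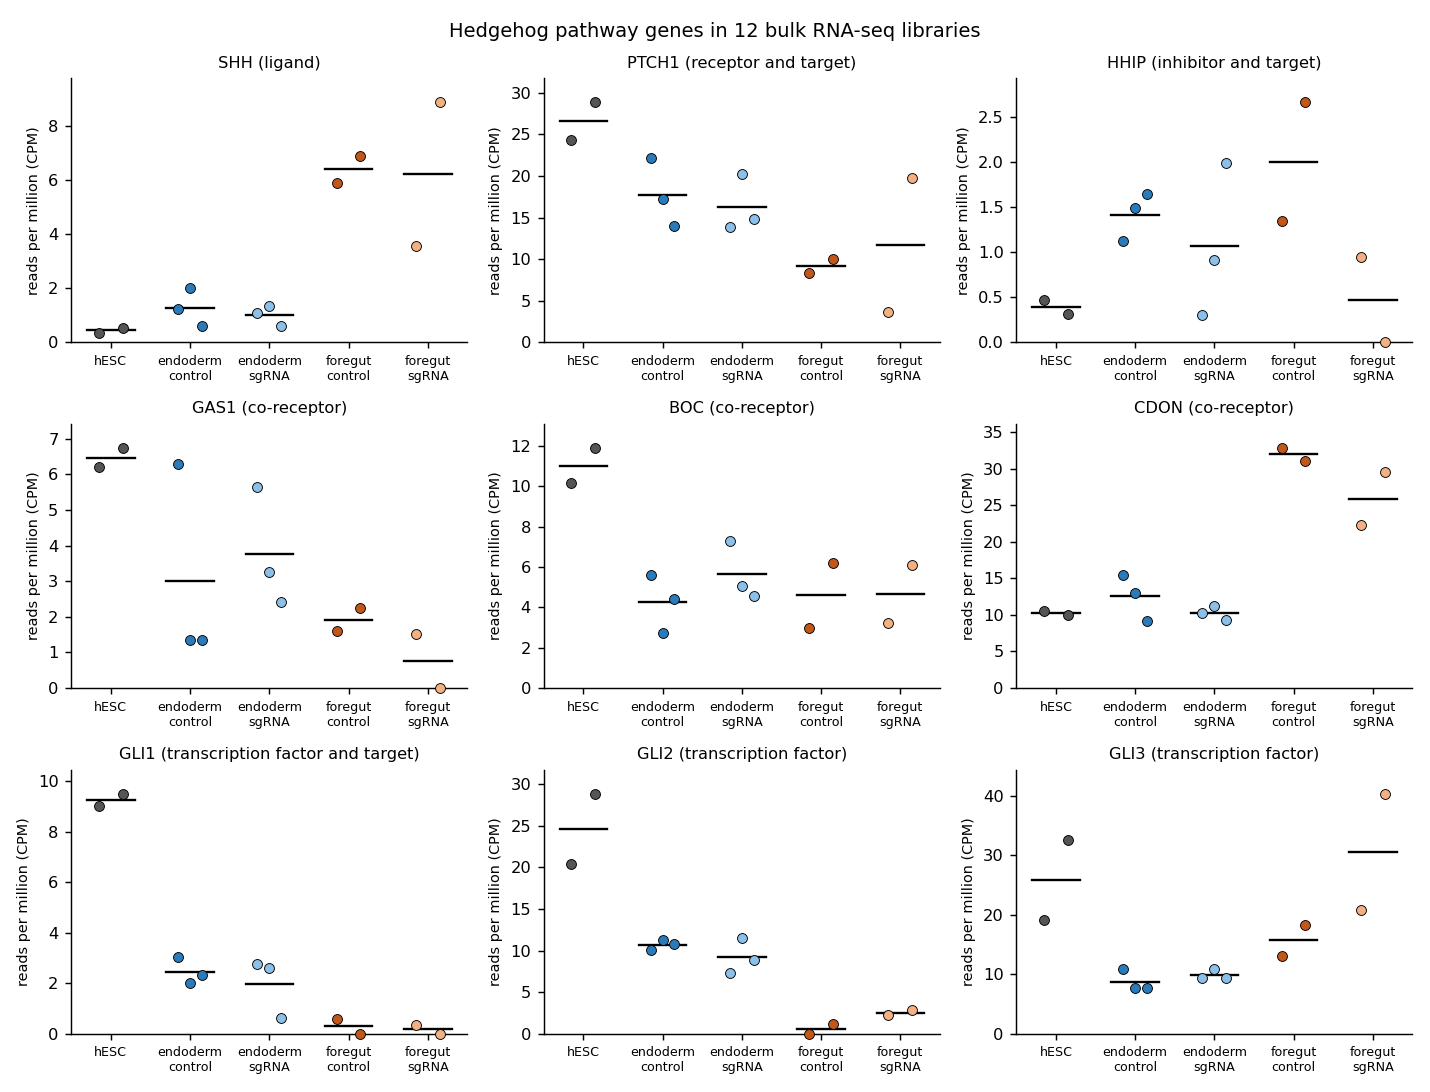
CPM of the 9 genes in each of the 12 bulk libraries, 1 panel a gene with its own axis, points for libraries and lines for group means. SHH and CDON are highest in foregut libraries, and GLI1, GLI2 and BOC in hESC.

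Between control endoderm and hESC, 6 of the 9 members were called by edgeR, that is, with an adjusted p below 0.05 and more than 2-fold apart, against 26.0% of all 20818 genes tested. The ligand and the inhibitor were higher in endoderm. On the log2 scale SHH was higher by 1.63 (SE 0.55, adjusted p = 0.0279) and HHIP by 1.91 (SE 0.49, adjusted p = 0.00596). All 3 GLI genes and BOC were lower. GLI1 changed by -1.84 (SE 0.28, adjusted p = 8.8e-05), GLI3 by -1.47 (SE 0.25, adjusted p = 0.000237), GLI2 by -1.12 (SE 0.22, adjusted p = 0.000754) and BOC by -1.30 (SE 0.30, adjusted p = 0.00243).

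PTCH1 (log2 fold change -0.51), GAS1 (-1.04) and CDON (0.35) did not pass, with adjusted p of 0.0799, 0.105 and 0.294. The median log2 fold change was -1.04 over the members and 0.04 over all genes tested. The call of SHH, which had 8 and 12 reads in hESC, was lost without hESC 1 (log2 fold change 1.40, adjusted p = 0.217), hESC 2 (1.90, 0.117) or control endoderm 2 (1.15, 0.169), as well as under limma-voom (0.0635), DESeq2 (0.0658) and a single edgeR fit over 12 libraries (0.0983). That single fit also lost GLI1 (log2 fold change -1.87, adjusted p = 0.182), GLI2 (-1.15, 0.197) and HHIP (1.88, 0.308) at nearly the same folds. Without hESC 2, HHIP (adjusted p = 0.0861) and GLI2 (log2 fold change -0.93) were not called either. GAS1 was called by limma-voom (log2 fold change -1.41, adjusted p = 0.0363), with a filter of 1 read (edgeR adjusted p = 0.0046), with the replicate block (0.0271) and without control endoderm 1, at a log2 fold change of -2.18 (2.17e-08).

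Other values moved between hESC and control endoderm as well. Mesenchyme markers summed to 6.54 and 12.3 CPM in hESC, led by COL1A1, and to 96.6 to 222 CPM in control endoderm, led by PDGFRA. Presomitic markers summed to 2.51 and 2.31 CPM and to 29.9 to 69.9 CPM, both led by DLL3. Axial markers summed to 39.7 and 24.6 CPM in hESC and to 156 to 175 CPM in control endoderm, both led by FOXA2. FOXA2 alone was at 116 to 140 CPM in control endoderm and is also an endoderm marker. Endoderm markers, FOXA2 included, summed to 34.7 and 24.2 CPM in hESC and to 1812 to 1976 CPM in control endoderm. Neural markers were lower in control endoderm, at 125 to 170 CPM against 365 and 416 CPM in hESC, both led by NES. Mitochondrial reads made up 25.5% and 16.9% in hESC and 8.30% to 14.4% in control endoderm. The part of these values in the differences was not tested. Control endoderm also carried dCAS9-KRAB, which the hESC label does not mention. If hESC lacked it, vector and tissue cannot be told apart in this comparison.

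Control foregut against control endoderm, which shares the endoderm libraries with the comparison above, gave calls for 3 members, against 29.0% of 21466 genes tested. SHH was higher by 2.32 (SE 0.49, adjusted p = 0.00588) and CDON by 1.37 (SE 0.27, adjusted p = 0.0048) on the log2 scale. GLI2 was lower, at -4.24 (SE 0.95, adjusted p = 0.00835), with 1 of its foregut libraries at 0. PTCH1, at -0.94, passed the adjusted p (0.0329) but not the fold limit. GLI1 (-3.01, SE 1.14, adjusted p = 0.0712) and GLI3 (0.84, adjusted p = 0.0511) stood close to the threshold on p. HHIP (0.49), BOC (0.10) and GAS1 (-0.64) were far from it, with edgeR adjusted p of 0.483, 0.873 and 0.490.

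GLI1 was called in this comparison by DESeq2 (adjusted p = 0.0234), limma-voom (0.0216), the single edgeR fit over 12 libraries (0.0443) and edgeR with a filter of 1 read (0.0415), and GLI3 without control endoderm 1 (log2 fold change 1.05, edgeR adjusted p = 0.0285). With the replicate number as a block 5 members were called, PTCH1 (log2 fold change -1.06, edgeR adjusted p = 0.0179) and GLI1 (adjusted p = 0.0140) in addition. Without either one of the control foregut libraries 4 members were called, GLI1 in addition, but foregut then had 1 library and the spread came from endoderm alone. The median over the members was 0.10, against -0.09 over all genes. The 6 mesenchyme markers summed to 295 and 290 CPM in control foregut, led by COL1A1 at 232 and 245 CPM, and to 222, 96.6 and 137 CPM in control endoderm, led by PDGFRA. FOXF1, a factor of gut mesenchyme, had no read in any foregut library. The 7 axial markers summed to 660 and 910 CPM in control foregut, led by FOXA2 and FOXJ1 (510 CPM in library 2) with no read of NOTO, and to 156 to 175 CPM in control endoderm, led by FOXA2. The 6 paraxial markers summed to 22.3 and 19.5 CPM, led by PAX1, and to 2.19 to 2.41 CPM, led by TCF15. Mitochondrial reads made up 29.0% and 17.6% in control foregut and 8.30% to 14.4% in control endoderm. The part of these values in the differences was not tested.

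In the sgRNA libraries the same step gave 4 calls among the members, against 26.3% of 20735 genes tested. SHH changed by 2.61 (SE 0.61, adjusted p = 0.0152), GLI3 by 1.65 (SE 0.29, adjusted p = 0.00437), CDON by 1.38 (SE 0.26, adjusted p = 0.00635) and GLI2 by -1.78 (SE 0.40, adjusted p = 0.0128). PTCH1 (-0.52), BOC (-0.27), HHIP (-0.87), GAS1 (-2.10) and GLI1 (-3.25, adjusted p = 0.138) were not called. The median over the members was -0.52, against -0.14 over all genes. Mesenchyme markers summed to 354 and 401 CPM in sgRNA foregut, led by COL1A1, and to 150 to 218 CPM in sgRNA endoderm, led by PDGFRA. Axial markers summed to 798 and 751 CPM, led by FOXJ1 and FOXA2, and to 108 to 186 CPM, led by FOXA2. Mitochondrial reads made up 34.7% and 22.4% in sgRNA foregut and 9.16% to 13.3% in sgRNA endoderm. The part of these values was not tested.

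Single libraries decided several of these calls. SHH was not called without sgRNA endoderm 2 (adjusted p = 0.0596) or 3 (0.0723) or with the replicate block (0.0892), which called GAS1 instead (log2 fold change -3.84, adjusted p = 0.0476), nor was GLI2 without sgRNA endoderm 2 (0.0892) or 3 (0.063), all by edgeR. The single fit over 12 libraries called GLI1 (log2 fold change -3.26, adjusted p = 0.0359). Without the library labelled sgRNA foregut 2, whose LTR5_Hs reads were not below the controls, 5 members were called, PTCH1 in addition, at a log2 fold change of -1.98 (edgeR adjusted p = 0.0027). Without sgRNA foregut 1, 7 members were called, GLI1, HHIP and GAS1 in addition, all at 0 in library 2. In both of these fits foregut had 1 library and the spread came from endoderm alone. In both foregut comparisons SHH and CDON were thus higher and GLI2 lower in foregut, and in the plot of fold changes their points lie past the dotted lines.

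**Figure D4:**
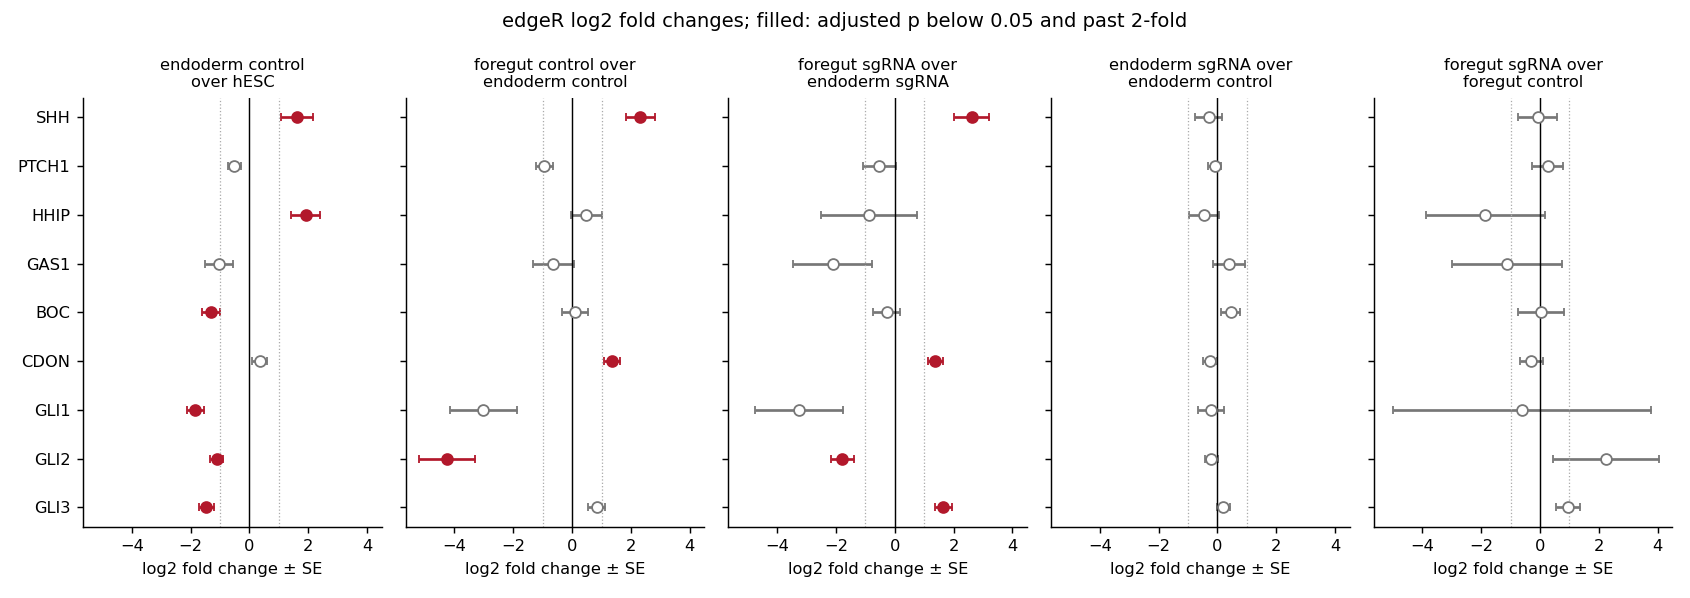
edgeR log2 fold changes of the 9 genes in the 5 comparisons between bulk groups, with bars of 1 SE and dotted lines at a change of 2-fold. Filled red points passed an adjusted p of 0.05 and 2-fold: 6 genes in endoderm against hESC, 3 and 4 in foregut against endoderm, and none with the sgRNA in endoderm or foregut.

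With the sgRNA against LTR5, no member was called in endoderm by edgeR, against 0.0343% of 20407 genes tested. At an unadjusted p under 0.05 and past 2-fold the count was also 0, and limma-voom and DESeq2 gave 0. Log2 fold changes ran from -0.46 (HHIP, SE 0.52) to 0.45 (BOC, SE 0.32), with SHH at -0.30 (SE 0.47) and PTCH1 at -0.10 (SE 0.22). Standard errors ran from 0.22 (PTCH1) to 0.54 (GAS1), so a difference near 2-fold could go uncalled in any member. Over all genes 7 were called, 550 at the unadjusted p, 53 by DESeq2 and 1 by limma-voom.

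In foregut no member was called with the sgRNA by edgeR either, against 0.165% of 20044 genes tested, nor by limma-voom or DESeq2. The count stayed at 0 without any single library, also without the one labelled sgRNA foregut 2. At an unadjusted p under 0.05 there was 1 member, GLI3, which was not past 2-fold. GLI3, whose control and sgRNA libraries did not overlap, was 0.95 higher on the log2 scale (SE 0.42, edgeR adjusted p = 0.9996). GLI2, also without overlap, had 2.25 (SE 1.79), and CDON, lower without overlap, -0.30 (SE 0.40). HHIP and GAS1 were also lower without overlap, with 1 sgRNA library at 0. With libraries as uneven as GLI1 (SE 4.40), HHIP (SE 2.02) and GAS1 (SE 1.86), a difference in these was not detectable.

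Whether the response to the sgRNA differed between foregut and endoderm was tested as an interaction. No member was called by edgeR, limma-voom or DESeq2, against 0.194% of 22708 genes tested by edgeR, and 1 (GLI2) passed at an unadjusted p under 0.05 and 2-fold. GLI2 had a difference of 2.42 on the log2 scale (SE 1.02, edgeR adjusted p = 0.574), and GLI3 one of 0.74 (SE 0.42, adjusted p = 0.694). It was called for GLI2 without control foregut 2, and for HHIP and GAS1 without sgRNA foregut 1, fits in which the group had 1 library, at 0 reads of the gene, and no spread of its own.

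The members lay at very different distances from the repeats of the LTR5 family. On GRCh37 the nearest of 613 LTR5_Hs integrants was 173 kb from PTCH1 and 178 kb from BOC, nearer than for most of 20162 protein-coding genes, whose median was 1641 kb. For GLI1 it was 855 kb, for SHH 2424 kb, and for the other 5 members 5726 to 8470 kb. With all 1315 LTR5 integrants, LTR5A and LTR5B included, the median was 717 kb. GLI1 was then at 491 kb, GAS1 at 837 kb, CDON at 2674 kb and GLI3 at 3729 kb, and the other members were as before. PTCH1 and BOC, the nearest members by both measures, had log2 fold changes of -0.10 and 0.45 with the sgRNA in endoderm and 0.26 and 0.03 in foregut, none of them called.

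Other pathway genes were read by the same lists. In control endoderm against hESC, 53 of 55 were tested, and 9 were called higher and 11 lower, beside 26.0% of all 20818 genes called, with a median log2 fold change of 0.24 against 0.04 over all genes. Of 7 genes for ligands and their release tested, 4 were called lower, with log2 fold changes of -3.84 for SCUBE2, -3.08 for SCUBE3, -2.86 for DISP2 and -1.49 for SCUBE1, and 2 higher, among them HHAT, which attaches palmitate to the ligand (1.94). DISP1 was at 7.72 CPM on average in hESC and 11.5 CPM in control endoderm. Glypicans GPC6 (2.83) and GPC4 (1.6) rose. SMO, which transmits the signal that PTCH1 holds back, fell by 1.28 on the log2 scale to 47.0 CPM, as did STK36 (-1.39) and PRKACB (-1.24). SMO and the 3 GLI genes were thus lower in endoderm together, while SHH was higher.

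Among the targets, FOXA2 rose (2.80), and PAX9 and NKX2-2, without a read in hESC, were at least 27.8-fold and 24.5-fold higher, taking 3 reads over the hESC group as the floor. These bounds use group means that 1 library raised: PAX9 was at 3.61, 0.418 and 1.40 CPM and NKX2-2 at 3.86, 0.372 and 0.550 CPM in control endoderm. OLIG2 (-2.79), MYCN (-2.61), BCL2 (-2.39) and CCND1 (-1.77) fell and CCND2 (1.70) rose. Of the targets among the members, HHIP was higher (1.91), GLI1 was lower (-1.84) and PTCH1 was not called.

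In control foregut against control endoderm, 54 pathway genes were tested, and 10 were called higher and 7 lower, beside 29.0% of all 21466 genes called. IHH, the second ligand of gut endoderm, rose by 5.36 on the log2 scale (SE 0.60, edgeR adjusted p = 0.000216), from 0.386 to 16.0 CPM, so that both SHH and IHH were higher in foregut. SCUBE3, which helps release the ligand, rose by 5.91, GPC3 by 2.90 and LRP2 by 2.56, while GPC4 fell (-4.10). SMO rose by 1.32 to 117 CPM, together with IQCE (1.80), EFCAB7 (1.42) and PRKACA (1.14), and CSNK1A1 fell (-2.75).

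Of the targets, PAX1 was at least 170-fold higher in control foregut and FOXA2 rose (1.72), whereas NKX2-2 was at least 37.1-fold lower, a bound from the same uneven endoderm libraries, and MYCN fell (-2.10). Over the 16 targets the median was -1.53, or -1.45 with genes at 0 set to their bound. In the sgRNA libraries 13 of 54 pathway genes were called higher and 5 lower, beside 26.3% of all 20735 genes, with IHH at 5.01, SCUBE3 at 5.43, LRP2 at 3.58, SMO at 1.71 and GPC4 at -3.57. Of the targets there, FOXA2 (1.87) was higher and MYCN (-1.45) lower, while FOXF1 was at least 62.3-fold and NKX2-2 at least 30.7-fold lower. The NKX2-2 bound uses a mean of uneven endoderm libraries, at 0.950 to 3.18 CPM. PAX1 was also called higher, at 2.79 and 15.9 CPM in foregut against at most 0.0600 CPM in endoderm, which is below the floor. So in foregut both ligands and SMO were higher in both comparisons. Among the targets PAX1 and FOXA2 were higher, NKX2-2 and MYCN were lower, and PTCH1 was not higher. The target GLI1 was at 0.582 CPM or less, with a library of each foregut group without a read. None of the pathway genes was called by edgeR with the sgRNA or in the interaction.

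The genes most like a member over the 12 libraries were listed by Pearson correlation of log2(CPM + 1) among 14220 genes whose mean reached 1 CPM, as a description, since libraries of a group share their tissue. For SHH they were CCDC120 (0.984), PLP2 (0.971), SDCCAG8 (0.970), TSPY26P (0.967) and ANKRD1 (0.967). For PTCH1 they were EIF2AK3 (0.968), NPC1 (0.967), SS18 (0.958), ZXDB (0.954) and SHLD2 (0.953). HHIP had looser neighbours, with TCP11L2 at 0.893, PDZK1 at 0.844, ENSG00000203279 at 0.834, TRPM4 at 0.832 and SUGCT at 0.827. None of the 9 members was among the neighbours of SHH, PTCH1 or HHIP.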

How the data were processed

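The authors aligned bulk reads with HISAT2 and counted them per gene and per transposable element, and the deposited values are raw counts on GRCh37; gastruloid UMI counts were made by the authors with Cell Ranger, and ATAC-seq peaks are on GRCh38. CPM was taken over gene reads. Genes reaching 3 reads in 1 library were tested by quasi-likelihood in edgeR 4.0.16 (TMM scaling, 2-sided, Benjamini-Hochberg over all genes tested) in R 4.3.3, and called at an adjusted p under 0.05 and over 2-fold. limma 3.58.1 (voom), DESeq2 1.42.0, leaving out each library, a replicate block and other filters were the alternatives. Nuclei were handled in Python 3.11.15 with scipy 1.17.1 and scanpy 1.11.5 (Scrublet), with UMIs summed per class, exact Poisson and binomial intervals, and thinning to 5000 UMIs. Named besides the members are pathway genes called with a mean of at least 1 CPM in a group, at most 5 per list and comparison by fold. The exception is endoderm against hESC, where all 8 such targets are named. DISP1, which was not called there, marker genes and pathway genes of the nuclei are named as well. So are the 5 genes most correlated with SHH, PTCH1 and HHIP. The scripts were tested on simulated data. The members and lists were chosen with earlier results of these data known.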

Additional observations from a re-analysis of the deposited data

How the results depend on the processing

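For endoderm against hESC, 6 members were called, 3 to 7 when each library was left out in turn and 2 in a single fit over all 12 libraries. Control foregut against control endoderm went from 3 called members to 5 with the replicate block, and the sgRNA foregut against sgRNA endoderm from 4 to between 2 and 7 when each library was left out. The interaction went from 0 to 1 at an unadjusted p under 0.05 and 2-fold, and to between 0 and 2 without single libraries. The cause was not tested. Libraries with the same replicate number did not deviate together in hESC and endoderm (correlations of -0.0451 to 0.0530). Between foregut and endoderm they did weakly (0.148 to 0.185), but with 2 pairs in each comparison this was not taken as a pairing. Between control and sgRNA foregut the correlation was -0.209, so a crossed block was added after seeing the data; it called 74 genes, against 19 with the numbered block and 33 without, and 0 members under each. With the block 7 members were called in endoderm against hESC, 0 for the sgRNA in endoderm, 4 in sgRNA foregut against sgRNA endoderm (GAS1 in place of SHH) and 0 in the interaction. Of 855 alternatives to 54 member effects, 35 changed the sign, all among effects that were not called; 16 lost a call and 26 gained one. In nuclei, the ratio of SHH moved from 30 to 27.7 with TBXT at 1 or more UMIs, to 35.8 with TBXT at 5 or more UMIs, to 41.0 with responder genes at 2 or more UMIs and to 78.9 without overlap. That of PTCH1 moved from 1.33 to 1.41 with TBXT at 1 or more UMIs, 1.24 at 5 or more, 1.38 with responder genes at 2 or more UMIs, 1.46 without overlap, 1.49 as a mean over nuclei and 1.38 after thinning. None of 81 alternatives changed the direction of a ratio in nuclei.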
